A study of Mus musculus with 8 samples.

Results

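Colon of mice colonized by the yeast Candida albicans was compared with colon of control mice by bulk RNA-seq, over 3 C. albicans and 3 control libraries out of the 8 in the series. The 6 libraries were taken by their labels, and all 52636 genes of the count table entered, of which 16107 passed the filter on low counts and were tested. The mice were germ-free wild-type C57BL/6 females, 6 weeks old, kept in gnotobiotic isolators, which are sealed housings that keep out other microbes. The colonized mice received 100000000 CFU (colony-forming units) of C. albicans strain SC5314 by oral gavage, and colon was collected after 30 days. The labels name the controls only as control at 30 days, so that what they were gavaged with, if anything, is not known here. The 2 remaining libraries come from mice given C. tropicalis MYA-3404 and share the fit that estimates the spread between libraries.

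C. albicans is a fungus that lives in the gut of many people, and germ-free mice are often used to study it because an intact microbiota resists it. The circadian clock, the heat shock response and the unfolded protein response recur in the results. In the clock, the activators BMAL1 (gene Arntl) and CLOCK or NPAS2 bind E-boxes (CACGTG) and switch on the repressors Per, Cry and Ciart and the output factors Dbp, Tef and Hlf, and the repressors then shut the activators off, in a daily cycle that the gut also runs. In the heat shock response the factor HSF1 switches on cytosolic chaperones of the Hsp70, Hsp40 and Hsp110 families, and in the unfolded protein response the endoplasmic reticulum (ER) raises its own chaperones, such as BiP (gene Hspa5), through ER stress response elements.

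Promoters of clock, C2cd4a and ER chaperone genes are printed first because they show the binding elements of these programmes in genes whose C. albicans libraries all lay above the controls. Each line holds the 250 bases before a RefSeq start on GRCm38.p6, 5′ to 3′ on the gene's strand, in lower case with the element in capitals. Ciart (E-box; chr3:95882229-95882478, minus strand) has 3 E-boxes, whose first bases lie 116, 58 and 44 bases before the start. Per1 (E-box; chr11:69098699-69098948, plus strand) and Tef (E-box; chr15:81802423-81802672, plus strand) each have 1 E-box at 1 of 2 listed starts. C2cd4a (E-box; chr9:67832331-67832580, minus strand) also has 1. Per3 (chr4:151044666-151044915, minus strand) has 2 copies of a D-box, the element of Dbp, Tef and Hlf. Hspa5 (chr2:34771840-34772089, plus strand) and Creld2 (chr15:88819396-88819645, plus strand) each have 1 ER stress response element.
Ciart: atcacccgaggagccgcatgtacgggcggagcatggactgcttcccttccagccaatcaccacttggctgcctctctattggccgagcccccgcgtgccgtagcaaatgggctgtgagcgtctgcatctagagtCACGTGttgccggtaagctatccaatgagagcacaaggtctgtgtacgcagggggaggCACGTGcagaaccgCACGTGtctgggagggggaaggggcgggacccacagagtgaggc
Per1: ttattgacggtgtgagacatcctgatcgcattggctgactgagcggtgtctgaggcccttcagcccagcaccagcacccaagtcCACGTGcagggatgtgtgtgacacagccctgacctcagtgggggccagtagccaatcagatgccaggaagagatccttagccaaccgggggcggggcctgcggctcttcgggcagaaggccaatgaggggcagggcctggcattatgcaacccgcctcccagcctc
Tef: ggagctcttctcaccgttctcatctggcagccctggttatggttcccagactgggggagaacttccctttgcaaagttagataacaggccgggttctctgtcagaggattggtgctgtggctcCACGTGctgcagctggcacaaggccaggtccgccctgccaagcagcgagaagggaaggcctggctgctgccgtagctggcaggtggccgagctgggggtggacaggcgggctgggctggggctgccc
C2cd4a: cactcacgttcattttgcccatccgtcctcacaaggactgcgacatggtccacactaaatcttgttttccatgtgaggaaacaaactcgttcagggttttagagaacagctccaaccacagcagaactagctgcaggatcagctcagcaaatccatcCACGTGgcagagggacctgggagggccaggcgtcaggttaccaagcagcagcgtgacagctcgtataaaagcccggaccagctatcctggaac
Per3: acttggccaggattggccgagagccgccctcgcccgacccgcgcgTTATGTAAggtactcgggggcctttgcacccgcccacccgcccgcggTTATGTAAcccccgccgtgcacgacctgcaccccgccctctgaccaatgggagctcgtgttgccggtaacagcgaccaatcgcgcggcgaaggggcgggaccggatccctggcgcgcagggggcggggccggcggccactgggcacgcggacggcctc
Hspa5: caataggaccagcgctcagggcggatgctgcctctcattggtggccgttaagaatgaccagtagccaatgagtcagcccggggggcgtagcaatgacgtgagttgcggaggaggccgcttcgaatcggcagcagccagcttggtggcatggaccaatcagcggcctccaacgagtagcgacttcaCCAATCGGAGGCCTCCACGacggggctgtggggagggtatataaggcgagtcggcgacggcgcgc
Creld2: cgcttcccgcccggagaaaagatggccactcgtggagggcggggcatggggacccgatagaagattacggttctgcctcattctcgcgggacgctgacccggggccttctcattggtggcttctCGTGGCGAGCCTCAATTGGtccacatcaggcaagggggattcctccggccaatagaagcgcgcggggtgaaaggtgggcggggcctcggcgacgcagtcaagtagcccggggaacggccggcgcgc

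Matches were searched on both strands, as CACGTG for the E-box, TTATGTAA or TTACGTAA for the D-box and CCAAT, 9 bases of any kind and CCACG for the ER stress response element. Among all 32851 promoters of the table, 6.02% held an E-box, 0.931% a D-box and 0.113% an ER stress response element. The counts below are by gene, with a match at any listed start. By that measure 1854, 296 and 35 of all 27025 genes held these elements. No match of these 3 elements shared bases with a match of another of them. Of the 7 genes past the test, 6 were in the table, and 4 of these held an E-box: C2cd4a, Ciart, Hsph1 and Per1. The core clock list had 11 genes in the table, of which 4 held an E-box: Bhlhe41, Ciart, Cry1 and Per1. A D-box was held by 2 of these 11, Per3 and Timeless, and by 0 of the 6 genes past the test. Of 12 clock output genes in the table, 3 held an E-box (Lonrf3, Tef and Tspan4) and 0 a D-box. Of the 24 ER chaperone and unfolded protein response genes in the table, 8 held the ER stress response element: Calr, Canx, Creld2, Dnajc3, Hsp90b1, Hspa5, Pdia6 and Syvn1. A heat shock element of 3 units (GAA and TTC in turn, starting with either, with 2 bases of any kind between units), present in 0.466% of all promoters, was found for 3 of 24 chaperone genes in the table, Dnajb6, Hspd1 and Hspe1. Of all 27025 genes, 139 held it. A match is a run of letters and was not tested for binding.

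The 8 libraries held 16195376 to 19761098 counts. Levels are given as CPM (counts-per-million, with library sizes adjusted by TMM). Where a gene had 0 counts, counting error alone leaves room for 3 counts, a floor of 0.152 to 0.185 CPM. The labels number the replicates without saying which libraries came from separate mice. The p-values then measure only the spread between the libraries sequenced, part of which may be technical. Of 10 genes chosen to check the tissue label, the epithelial genes Vil1 and Slc26a3 ran from 809 to 1259 and 696 to 1351 CPM, respectively, over the 6 libraries. Cdx2 and Car1, of the same 10, varied far more, as given below. The libraries also differed in genes that vary along the colon, picked after their values were seen. Hoxd13, a homeobox gene of the hindmost gut, was at 5.94, 17.02 and 188 CPM in controls 1 to 3, at 17.9, 1.99 and 22.8 CPM in C. albicans 1 to 3 and at 300.1 and 219.9 CPM in C. tropicalis 1 and 2. Slc9a3, the sodium-proton exchanger NHE3, ran the other way at 1116, 284 and 13.5 CPM in the controls, 1051, 1516 and 1841 CPM with C. albicans and 12.5 and 10.2 CPM with C. tropicalis. Control 3 thus stood with the C. tropicalis libraries in these genes, and Cdx2 (339, 192 and 26.9 CPM in controls 1 to 3 and 224, 469.7 and 377 CPM in C. albicans 1 to 3) and Car1 (243, 388 and 1600.4 against 306, 431 and 179 CPM) behaved alike. Hoxa13, another Hox gene, did not rise with Hoxd13. It was at 45.4 CPM in control 3, its lowest library, and at 52.6 and 53.05 CPM with C. tropicalis. Whether the libraries differ in segment was not tested. The labels do not give the segment of colon or the hour of collection, so differences in either cannot be told apart from colonization, and the calls made without control 3 are given with the other left-out libraries at the end.

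**Figure D1:**
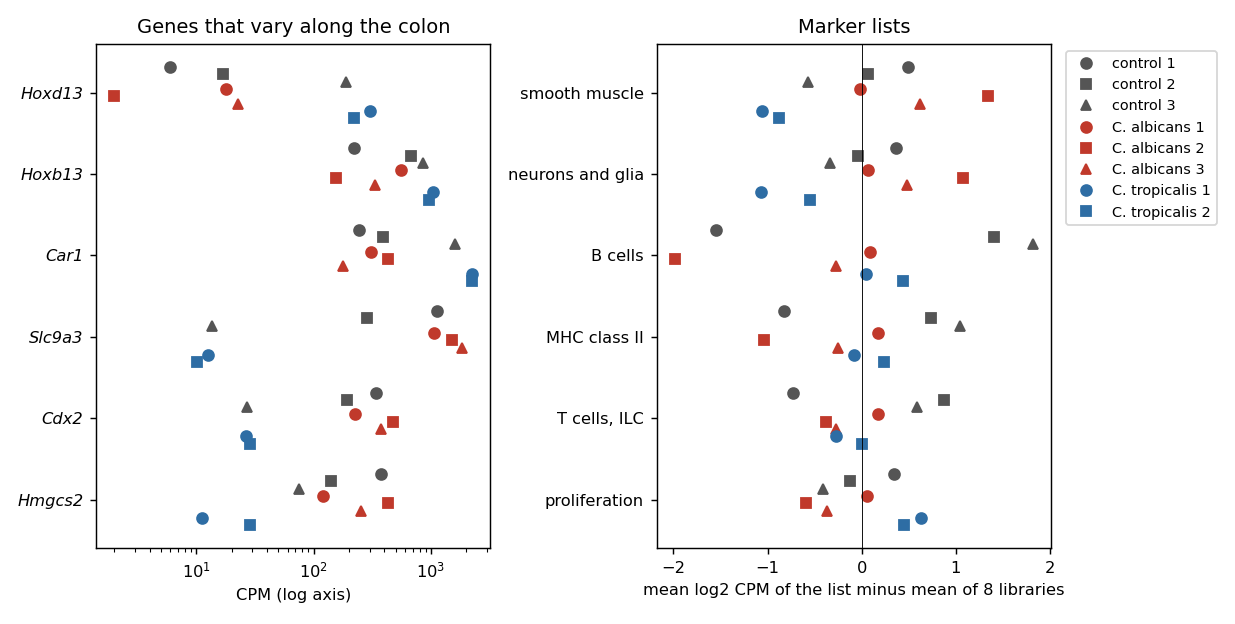
Left, CPM on a log axis of 6 genes that vary along the colon, 1 point per library. Right, mean log2 CPM of 6 marker lists in each library minus the mean over the 8 libraries. Hoxd13 is at 188 CPM in control 3 and at most 22.8 CPM in the C. albicans libraries, and the B cell score of control 1 lies apart from controls 2 and 3.

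Of the 16107 genes, 7 differed between C. albicans and control colon at an adjusted p under 0.05 (edgeR's quasi-likelihood test with Benjamini-Hochberg adjustment over all genes), which is 0.0435% of the genes tested. The 6 higher genes (0.0373%) were the clock repressors Per1, Per2 and Ciart, the chaperone gene Hsph1, the nuclear C2-domain gene C2cd4a and the RNA-binding gene Rbm14, and the lower gene (0.00621%) was the clock activator Arntl. A further 36 genes had an adjusted p from 0.05 to 0.1, 32 higher and 4 lower, which brings the share under 0.1 to 0.267% (0.236% higher and 0.031% lower). At an unadjusted p under 0.05 stood 2487 genes (15.4%), 1471 higher (9.13%) and 1016 lower (6.31%). Estimates lay above control for 48.2% of genes and below it for 51.8%. In 1581 genes (9.82%) every C. albicans library lay above every control, and in 1541 (9.57%) every one lay below.

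**Figure D2:**
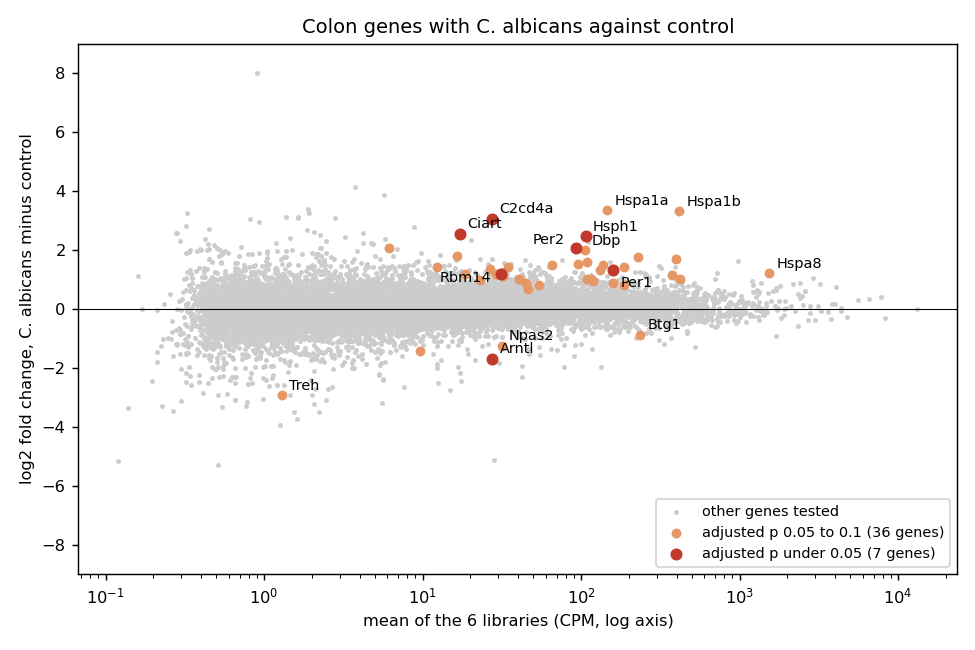
Log2 fold change (C. albicans minus control) against mean CPM of the 6 libraries on a log axis, 1 point per gene tested. The 7 genes with an adjusted p under 0.05 are in red and the 36 from 0.05 to 0.1 in orange, and most of both lie above 0.

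Clock genes lay on both sides of control, with the activators low and the repressors and output factors high. Arntl was at 40.9, 37.4 and 48.1 CPM in controls 1 to 3 and at 14.1, 12.5 and 12.6 CPM in C. albicans 1 to 3. It fell in every colonized library, which varied little among themselves (log2 fold change -1.69 ± 0.14, SE; adjusted p = 0.00941 by edgeR). Npas2, which can stand in for CLOCK as the partner of BMAL1, was at 35.9, 39.997 and 57.4 CPM in the controls and 19.4, 17.8 and 19.01 CPM with C. albicans. Its groups did not overlap either, but its adjusted p of 0.0776 missed the threshold. Clock itself, at 40.2, 39.3 and 44.2 against 37.7, 30.4 and 28.02 CPM, also lay below every control in all 3 colonized libraries, by a smaller margin (log2 -0.36 ± 0.13; adjusted p = 0.274). For these 3 activators every colonized library was thus below every control.

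Of the 7 genes past the test, 3 were repressors of the clock. Per2 was at 35.04, 40.4 and 29.98 CPM in controls 1 to 3 and at 143, 131 and 174 CPM in C. albicans 1 to 3. The lowest colonized library was thus far above the highest control, and Per2 rose 4.25-fold (log2 2.09 ± 0.20; adjusted p = 0.0150). For Per1 the values were 90.6, 88.1 and 96.4 CPM against 223, 208 and 251 CPM, with controls that barely differed from each other, and it rose 2.48-fold (adjusted p = 0.0222). Ciart, whose product binds BMAL1 and opposes it, went from 5.82, 6.25 and 2.90 CPM to 29.5, 27.2 and 31.3 CPM and rose 5.88-fold (adjusted p = 0.0158). Control 3 was the lowest of the controls for Ciart, Dbp, Tef and Hlf. Per3, the third Period gene, was at 18.7, 14.999 and 19.1 CPM in the controls and 45.997, 34.8 and 39.8 CPM with C. albicans (log2 1.19 ± 0.18; adjusted p = 0.0711), again without overlap; it shares its stretch of chromosome with Camta1 on the same strand. The transcriptional repressor Bhlhe40 (Dec1) was at 120.2, 147 and 141 against 251, 241 and 219 CPM (adjusted p = 0.0914), and its relative Bhlhe41 at 3.71, 3.87 and 3.28 against 5.56, 8.71 and 6.09 CPM. The cryptochromes differed little: Cry2 was at 61.3, 59.9 and 59.2 against 80.2, 64.04 and 77.98 CPM, without overlap but by a small margin. Cry1, at 27.7, 24.3 and 21.9 against 20.6, 36.8 and 37.3 CPM, overlapped, with C. albicans 1 below every control.

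Output genes of the clock lay on the same side as the repressors. Dbp was at 40.8, 60.9 and 24.6 CPM in controls 1 to 3 and 178, 168 and 161 CPM in C. albicans 1 to 3, an estimate 4.01 times control (log2 2.0042 ± 0.31; adjusted p = 0.0711). Its reads overlap those of Sphk2, which lies on the other strand and cannot be separated without strand information. Tef was at 80.6, 91.1 and 52.9 against 195, 178 and 189 CPM (adjusted p = 0.0711) and Hlf at 9.36, 7.56 and 3.44 against 13.8, 24.5 and 15.9 CPM (adjusted p = 0.195). All 3 factors bind D-boxes, and in each the colonized libraries lay above all controls. Usp2, a ubiquitin protease under clock control, was at 23, 31.4 and 14.6 against 62.6, 51.6 and 64.4 CPM (adjusted p = 0.103), and the deadenylase gene Noct at 185, 141 and 183 against 269, 419 and 401 CPM. The nuclear receptor Nr1d1 (REV-ERBα), which represses Arntl, was at 116, 147 and 160.4 against 248, 188 and 159 CPM, so that C. albicans 3 lay within the controls, while Nr1d2 was at 36.01, 29.4 and 21.01 against 51.7, 47.99 and 41.5 CPM and did not overlap. Nr1d1 overlaps Thra on the other strand.

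Counted over the lists, 15 core clock genes were tested and 3 passed higher and 1 lower. In 8 of them (53.3%) all colonized libraries lay above all controls and in 4 below (26.7%), against 9.82% and 9.57% of all genes tested, and the median log2 fold change was 0.34. The 14 clock output genes and nuclear receptors had 8 above all controls (57.1%, against 9.82% of all genes), 0 below and a median of 0.74, with none past the test. Over all genes tested the median was -0.016. DESeq2, run as an alternative, called 7 of the core clock genes (5 higher, 2 lower) and 8 of the output genes, all higher, where it called 3.31% of all 13902 genes to which it gave an adjusted p.

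**Figure D3:**
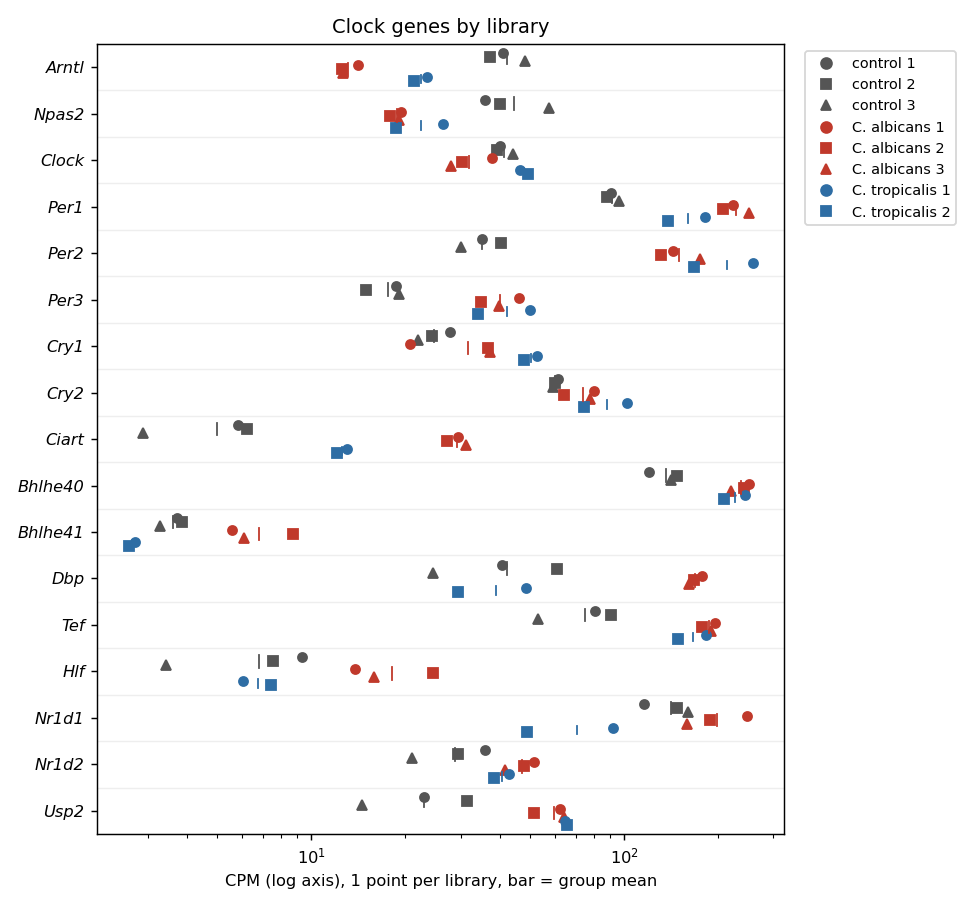
CPM of 17 clock genes on a log axis, with 1 point per library and a bar at each group's mean. The 3 C. albicans libraries lie left of all controls for Arntl, Npas2 and Clock and right of them for Per1, Per2, Per3, Ciart, Dbp and Tef.

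Cytosolic chaperones of the heat shock response were the other large group on the higher side. Hsph1, which encodes Hsp105 (HSP110), a nucleotide exchange factor for Hsp70, was at 37.6, 32.9 and 27.5 CPM in controls 1 to 3 and at 122, 235 and 188 CPM in C. albicans 1 to 3. It rose 5.57-fold (log2 2.48 ± 0.28; adjusted p = 0.0227), with C. albicans 1 the lowest of the colonized libraries. The inducible Hsp70 genes had larger estimates but missed the threshold. Hspa1a was at 23.9, 25.4 and 28.6 CPM against 254, 376 and 168 CPM (log2 3.36 ± 0.47; adjusted p = 0.0711), and Hspa1b at 75.1, 87.02 and 65.2 CPM against 632, 1122 and 519.6 CPM (log2 3.32 ± 0.47; adjusted p = 0.0711). These are nearly identical neighbours on chromosome 17 (34969190 to 34972156 and 34956436 to 34959238), so the split of reads between them is uncertain. In the fit of only the 6 libraries, without the C. tropicalis libraries (113 and 31.1 CPM for Hspa1a), both passed (adjusted p = 0.0208 and 0.0225).

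Other cytosolic chaperones lay above control without passing the test. Hspa8, the constitutive Hsc70, was at 783, 1038 and 949 against 1735, 2238 and 2494 CPM (adjusted p = 0.0711). Dnaja1, an Hsp40, was at 106, 122 and 75.8 against 212, 322 and 278 CPM (adjusted p = 0.0711), Chordc1, a partner of Hsp90, at 28.6, 28.9 and 22.7 against 47.8, 63.6 and 51.1 CPM (adjusted p = 0.0711), and Bag3, which links Hsp70 to autophagy, at 78.02, 86.1 and 80.4 against 145, 186 and 140.5 CPM (adjusted p = 0.0929). Each of these had every colonized library above every control. Dnajb1 was at 69.1, 92.6 and 57.5 against 152, 138 and 103 CPM and Stip1, the Hsp70-Hsp90 adaptor HOP, at 96.8, 107 and 82.9 against 142, 198 and 205 CPM (adjusted p = 0.195 and 0.114). Hsp90ab1 was at 1203, 1324 and 1349.8 against 1617, 2061 and 2236 CPM (log2 0.61 ± 0.16; adjusted p = 0.203).

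Of the mitochondrial chaperones, Hspd1 and Hspe1 overlapped between the groups. Hspd1 (Hsp60) was at 254, 197 and 154 CPM in the controls and 204, 248.5 and 281 CPM with C. albicans, and its partner Hspe1, which lies head to head with it and overlaps it, at 99.6, 87.3 and 68.5 against 80.4, 117 and 129 CPM. Trap1, the mitochondrial Hsp90, was at 91.7, 92.8 and 98.4 against 90.3, 77.3 and 84.6 CPM and was the 1 member of the list with all colonized libraries below all controls. The small heat shock gene Hspb1 was at 289, 465 and 209 against 399, 649.8 and 436 CPM and overlapped, as did the factor gene Hsf1 itself at 47.4, 44.5 and 72.3 against 66.5, 69.97 and 78.7 CPM. Hsp90aa1 varied widely within both groups, with 7.93, 177 and 154 CPM in controls 1 to 3 and 13.6, 408 and 16.6 CPM in C. albicans 1 to 3, so that no difference between groups can be read from it. Of the 30 chaperone genes tested, 1 passed, 17 (56.7%) lay above all controls in every colonized library and 1 below, against 9.82% and 9.57% of all genes, and the median log2 fold change was 0.60. DESeq2 called 13 of the 30, all higher, against 3.31% of all genes to which it gave an adjusted p.

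**Figure D4:**
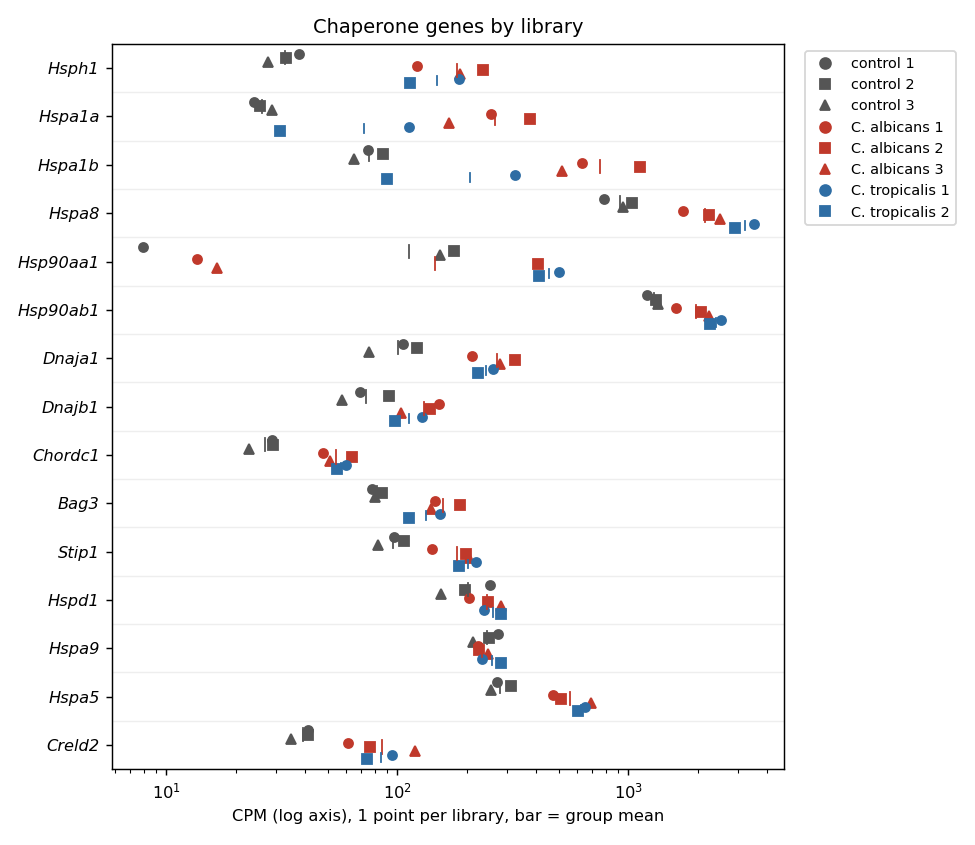
CPM of 15 chaperone genes on a log axis, with 1 point per library and a bar at each group's mean. C. albicans libraries lie right of all controls for Hsph1, Hspa1a, Hspa1b, Hspa8, Dnaja1, Bag3 and Hspa5 and among them for Hspd1 and Hspa9, and Hsp90aa1 is scattered within each group.

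C2cd4a was the tested gene with the greatest fold change among the 7. Its product is a C2-domain protein of the nucleus, and it is known as a gene induced by inflammatory cytokines in endothelium. Its values were 5.14, 7.62 and 4.84 CPM in controls 1 to 3 and 39.5, 63.9 and 43.3 CPM in C. albicans 1 to 3, and it rose 8.35-fold (log2 3.06 ± 0.30; adjusted p = 0.0150). On chromosome 9 (GRCm38) it spans 67830489 to 67832330, on the minus strand. Its relative C2cd4b, a neighbour on the plus strand from 67759437 to 67760930, was at 2.57, 1.90 and 2.53 against 6.46, 14.1 and 9.02 CPM (log2 2.08 ± 0.32; adjusted p = 0.0711), also without overlap. They were the 2 of 4 tested family genes above all controls (50%, against 9.82% of all genes). The family did not rise as a whole, as 1 gene had an estimate below control (log2 -1.25).

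Rbm14, an RNA-binding coactivator and paraspeckle protein, was at 18.6, 20.6 and 18.5 CPM in the controls and 36.6, 46.5 and 47.6 CPM with C. albicans. It rose 2.27-fold (log2 1.1801 ± 0.13; adjusted p = 0.0227), and the controls lay close together. Sfpq, another paraspeckle protein, was at 123, 124 and 161 against 216, 243 and 250.1 CPM (adjusted p = 0.114). Paraspeckle and cold-inducible RNA-binding genes as a list leaned the other way from Rbm14: 6 of 19 estimates lay above control and 13 below, against 48.2% and 51.8% of all genes.

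Immediate early genes, which cells switch on within minutes of a stimulus, lay mostly above control, and none passed the test. Fosl1, a partner of Jun in AP-1, was at 1.83, 1.85 and 1.93 CPM in controls 1 to 3 and 5.11, 15.9 and 8.04 CPM in C. albicans 1 to 3 (log2 2.37 ± 0.43; adjusted p = 0.111), and it overlaps Ccdc85b on the other strand, whose reads are more numerous. Maff was at 34.9, 43.6 and 38.4 against 70.7, 74.7 and 66.9 CPM and Klf4, a factor of differentiated colonocytes and goblet cells, at 850.0, 963 and 812 against 1667, 1416 and 1590.4 CPM (adjusted p = 0.120 and 0.129). In all 3 the colonized libraries were above every control. Fosb, named after its values were seen, was at 7.08, 10.2 and 15.05 against 34.5, 18.5 and 21.3 CPM (adjusted p = 0.203). In 9 of 28 genes (32.1%) the groups separated upward and in 0 downward, against 9.82% and 9.57% of all genes, and the list's median was 0.45.

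ER chaperones lay above control in the same libraries, short of the threshold. Hspa5 (BiP) was at 269, 311 and 255 CPM in the controls and 472, 514 and 689 CPM with C. albicans (log2 1.0037 ± 0.17; adjusted p = 0.0929). Creld2, an ER protein induced by stress, was at 41.1, 41.1 and 34.7 against 61.3, 76.6 and 119 CPM and Hyou1, the ER relative of Hsp110, at 84.4, 102 and 91.7 against 141, 149 and 231 CPM (adjusted p = 0.133 and 0.158). C. albicans 3 was the highest library for all 3 genes, in which no colonized library reached down to a control. Xbp1, the factor of the pathway, was at 139, 189.7 and 182 against 217, 203 and 202 CPM (log2 0.28 ± 0.14; adjusted p = 0.367). Of 28 genes, none passed, 9 lay above all controls (32.1%), 0 lay below, against 9.82% and 9.57% of all genes, and the median was 0.18 (0.31 without control 2). Genes of the hypoxia response had 7 of 29 above all controls (24.1%, against 9.82% of all genes), among them Hif1a at 35.7, 41.2 and 40.03 against 59.1, 51.9 and 56.7 CPM and the collagen prolyl hydroxylase P4ha1 at 28.9, 38.4 and 26.9 against 49.7, 60.8 and 63.2 CPM (adjusted p = 0.150 and 0.128).

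Further genes with higher values and an adjusted p from 0.05 to 0.1 had varied roles. Cys1, which encodes the cilium-associated protein cystin, was at 7.93, 7.68 and 6.502 against 18.4, 32.8 and 25.8 CPM (log2 1.80 ± 0.23; adjusted p = 0.0549), and Epn3, an endocytic epsin of epithelia, at 73.5, 87.4 and 68.9 against 135, 172 and 161 CPM (adjusted p = 0.0711). Zc3h12a, whose product Regnase-1 degrades inflammatory mRNAs, was at 18.1, 18.2 and 25.1 against 44.1, 38.6 and 49.96 CPM (adjusted p = 0.0711). Bcl3, a nuclear partner of NF-κB, was at 28.02, 56.7 and 60.99 against 128, 148 and 148 CPM, with control 1 well below the other controls (adjusted p = 0.0932). Sfn, the epithelial 14-3-3σ, was at 173, 234 and 157 against 359, 799 and 657 CPM and Cd177 at 105, 119.6 and 109 against 193, 229.7 and 198 CPM (adjusted p = 0.0932 and 0.0711). Spdef, a transcription factor of goblet cell maturation, was at 80.98, 73.7 and 60.99 against 128, 262 and 225 CPM (log2 1.51 ± 0.26; adjusted p = 0.0964). The colonized libraries lay above all controls in each of these genes, C. albicans 1 being the lowest of them for Cys1, Sfn, Cd177, Epn3, Bcl3 and Spdef.

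The largest fold changes above control outside the chaperone, clock and C2cd4 genes, among genes at an unadjusted p under 0.05 without overlap and at a mean of at least 1 CPM, included the potassium channel genes Kcnn2 and Kcng2 and the Wnt receptor gene Fzd9. Fzd9 was at 2.85, 1.31 and 0.806 CPM in the controls and 5.62, 10.4 and 7.37 CPM with C. albicans (log2 2.24 ± 0.48; adjusted p = 0.148). It was at 1.03 and 0.510 CPM with C. tropicalis. Kcnn2 was at 1.71, 0.238 and 1.07 against 2.36, 9.86 and 4.33 CPM, with 1 control near the floor (adjusted p = 0.216).

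Genes with lower values other than Arntl, none past the test, had varied roles. Treh, the brush border enzyme trehalase, which splits trehalose, a sugar that yeasts store, was at 2.51, 2.80 and 1.61 CPM in controls 1 to 3 and 0.225, 0.420 and 0.244 CPM in C. albicans 1 to 3 (log2 -2.92 ± 0.42; adjusted p = 0.0711). The colonized values were near the floor of 3 counts. Btg1, an antiproliferative gene, was at 271, 320.3 and 326 against 190.2, 151.2 and 159.9 CPM (log2 -0.87 ± 0.14; adjusted p = 0.0731). Both genes were below every control in every colonized library. Rbp2, the retinol-binding protein of absorptive cells, was at 48.5, 70.1 and 60.1 against 37.9, 21.6 and 29.2 CPM (adjusted p = 0.144), and Cldn8, a barrier-forming claudin of the colon, at 61.4, 83.2 and 133 against 39.5, 32.1 and 36.2 CPM with controls that spread widely (adjusted p = 0.114).

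Of 3 lists of lipid genes, those of cholesterol synthesis and fatty acid oxidation lay mostly below control and that of fatty acid synthesis did not (9 of 16 estimates above, against 48.2% of all genes, median 0.061), and no gene passed. Cholesterol synthesis genes had 23 of 24 estimates below control (against 51.8% of all genes) with a median of -0.30. In 4 (16.7%) the colonized libraries lay below all controls, against 9.57% of all genes. The size of the median rested on control 2, without which it was -0.11. The summed level was 3097, 4091 and 2918 CPM in controls 1 to 3 and 3099.8, 2596 and 3019.7 CPM in C. albicans 1 to 3. Insig1, a sterol sensor, was at 174, 251 and 170.0 against 119, 88.4 and 114 CPM, and Fdps, an enzyme of the pathway, at 5.48, 6.07 and 6.29 against 1.97, 2.88 and 3.41 CPM (adjusted p = 0.150 and 0.165). The summed level of fatty acid oxidation genes overlapped, at 2329, 2120 and 1862 CPM in controls 1 to 3 and 1905, 2003 and 1944 CPM in C. albicans 1 to 3. Fatty acid oxidation genes had 7 of 18 below all controls (38.9%, against 9.57% of all genes), 0 above (against 9.82%) and a median of -0.25. Among these, Slc25a20, the carnitine carrier of mitochondria, was at 224, 214 and 209 against 153, 116 and 136 CPM and Acadl, an acyl-CoA dehydrogenase, at 122, 119.6 and 147 against 109, 93.3 and 84.7 CPM (adjusted p = 0.151 and 0.261). Angptl4, a PPAR target that inhibits lipoprotein lipase, was at 4.05, 2.08 and 4.62 against 1.24, 1.73 and 0.914 CPM (adjusted p = 0.203).

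Antifungal and barrier readouts were mixed. Of 14 chosen readouts, 10 were tested and none passed. Duox2, Duoxa2 and Clec7a were among those whose groups did not overlap, as was so for 19.4% of all genes. Il17a had 1 count and Il22 had 0 in all 8 libraries together, and Reg3b and S100a8 had 19 and 6. Duox2, the epithelial oxidase that makes hydrogen peroxide, was at 65.6, 47.1 and 48.7 CPM in the controls and 107, 149.8 and 237 CPM with C. albicans (log2 1.61 ± 0.27; adjusted p = 0.0929), and its maturation factor Duoxa2 at 3.37, 6.07 and 4.41 against 7.81, 9.23 and 14.2 CPM (adjusted p = 0.190). Both genes were higher in all 3 colonized libraries, and C. albicans 3 was the highest. NADPH oxidase and nitric oxide synthase genes as a list leaned the other way. Of 12 tested, 8 had estimates below control (against 51.8% of all genes), and the median was -0.51. Retnlb, a goblet cell protein against microbes, was at 5.48, 0.952 and 0.215 against 1.07, 24.6 and 20.5 CPM, high in C. albicans 2 and 3 but not in 1 (adjusted p = 0.309). Muc2, the main mucin, was at 4256, 2674 and 2193 against 4120.1, 6391 and 4796 CPM and overlapped (adjusted p = 0.265). Clec7a, the β-glucan receptor Dectin-1, was at 1.88, 1.61 and 2.53 against 1.52, 0.997 and 1.22 CPM, the colonized libraries below all controls by a small margin (adjusted p = 0.346), while Epha2, which binds β-glucan on oral epithelium, was at 38.4, 41.4 and 23.8 against 81.2, 124 and 85.5 CPM above them (log2 1.49 ± 0.23; adjusted p = 0.0711). Of 19 tested genes of fungal recognition and CARD9 signalling, 2 lay above all controls and 2 below. These shares, 10.5% each, were near the 9.82% and 9.57% of all genes. Reg3g, Card9 and Lcn2 stayed under 3 CPM in all 6 libraries, at 0.393, 1.89 and 0.609, 2.53, 1.36 and 1.83 and 1.52, 2.05 and 2.07 CPM with C. albicans. The receptor gene Il17rc was at 228, 264 and 302 against 422, 457 and 528 CPM (log2 0.82 ± 0.18; adjusted p = 0.151), the 1 type 17 gene beside Stat3 with all colonized libraries above all controls. These were 2 of 14 type 17 genes tested (14.3%, against 9.82% of all genes), and 0 lay below all controls. The list did not lean upward: 8 of 14 estimates lay below control (against 51.8% of all genes), with a median of -0.17. Igha, the constant gene of IgA, was at 378, 962 and 1089 against 2657, 1313 and 736 CPM, too scattered to separate (adjusted p = 0.389).

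In bulk tissue, fewer cells of a type and less RNA per cell cannot be told apart, and the marker lists moved between libraries beside these results. All 22 smooth muscle genes had estimates above control, against 48.2% of all genes (median 0.66, and 0.31 without C. albicans 2). None separated the groups, against 19.4% of all genes: the summed level was 19048, 15314 and 10192 CPM in controls 1 to 3 and 13961, 38830.5 and 22368 CPM in C. albicans 1 to 3. Enteric neuron and glia genes had 25 of 26 estimates above control, against 48.2% of all genes. In 4 of them (15.4%) every colonized library lay above every control, against 9.82% of all genes. Their summed levels were 509.9 to 706 CPM in the controls and 585 to 766 CPM with C. albicans. With a smooth muscle score added to the model, all 7 genes kept their call and 17 passed. The 10 added genes were Fosb, Cys1, Zc3h12a, Treh, Per3 and 5 immunoglobulin variable genes. The part of the neuron and glia genes in the results was not tested.

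B cell genes lay lower as a list, with 23 of 24 estimates below control (against 51.8% of all genes) and a median of -1.78 (-1.07 without control 3). Yet none lay below all controls, against 9.57% of all genes. Control 1 stood with the colonized libraries: the summed level was 142, 721 and 866 CPM in controls 1 to 3 and 348, 193 and 312 CPM in C. albicans 1 to 3. Pax5, the defining B cell factor, was at 1.20, 21.1 and 16.98 against 3.31, 0.472 and 2.56 CPM (adjusted p = 0.263). The 12 MHC class II genes summed to 1004, 2039.8 and 2101 CPM in the controls against 1577, 940.2 and 1177 CPM with C. albicans. T cell genes summed to 65.97 to 116 CPM in the controls and 67.1 to 81.5 CPM with C. albicans. The part of these cells in the other results was not tested.

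**Figure D5:**
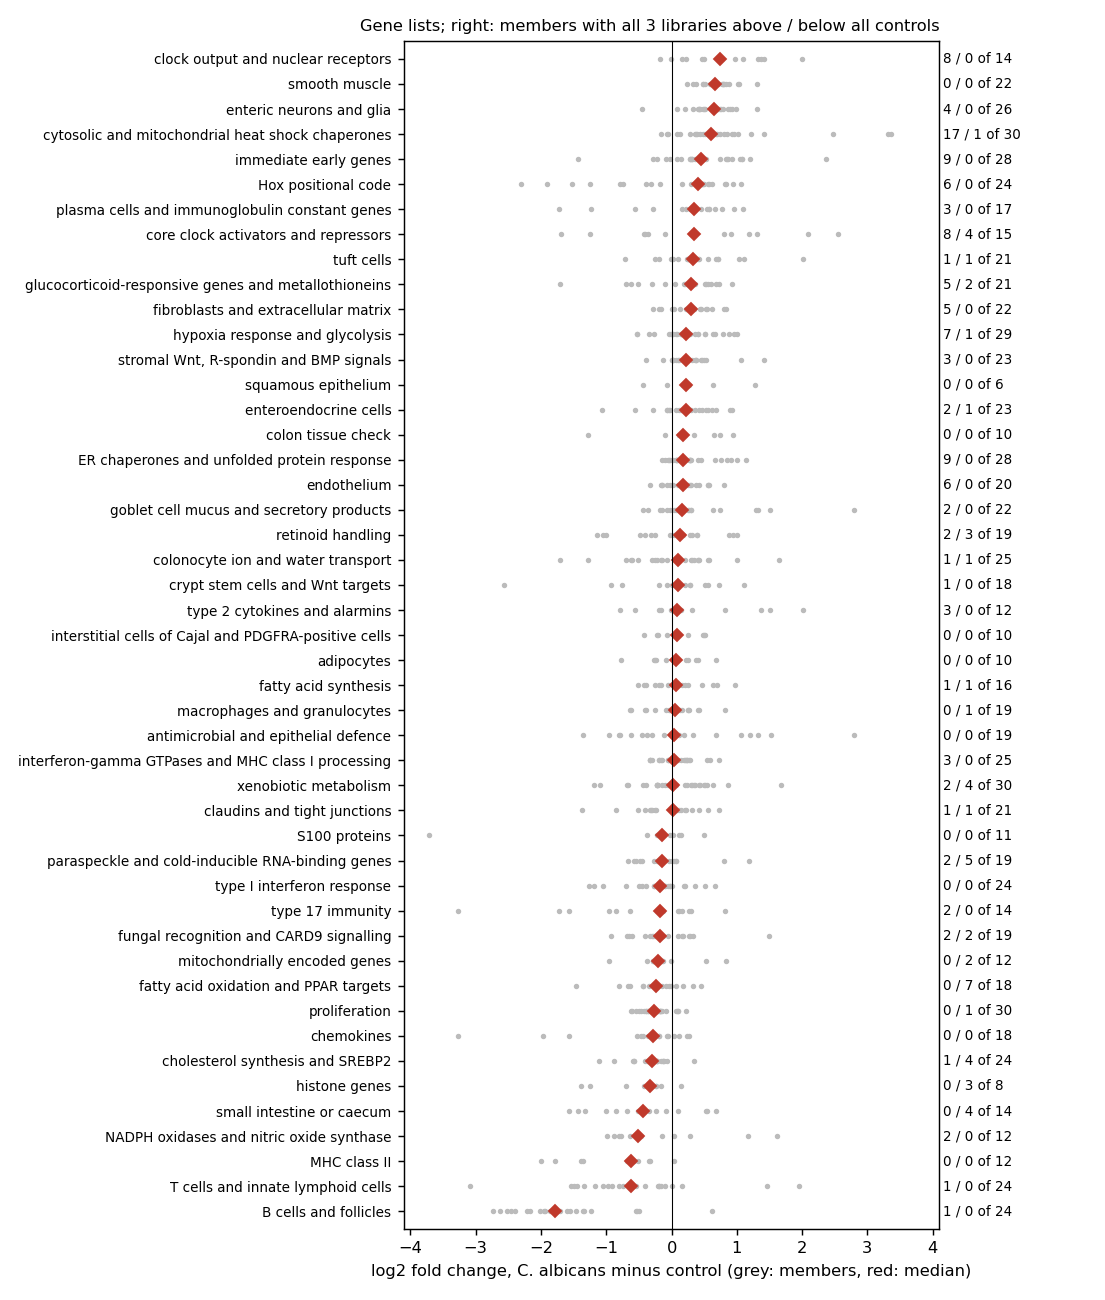
Log2 fold change (C. albicans minus control) of every tested member (grey) and the median (red) of each list with at least 5 tested genes. The numbers at the right give members with all 3 C. albicans libraries above, or below, all controls, and the clock output and heat shock lists have 8 of 14 and 17 of 30 above.

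Genes of position along the gut are given for the same libraries, and none passed the test. Of 24 tested genes of the Hox code and related factors, 6 lay above all controls (25%, against 9.82% of all genes), among them Hoxa3 at 22.2, 17.7 and 24.7 against 41.8, 35.7 and 37.7 CPM and Hoxa13 at 55.9, 56.8 and 45.4 against 76.5, 68.3 and 74.3 CPM (adjusted p = 0.114 and 0.203). Hoxa3 shares its annotation with Hoxa5 on the same strand. With a distal Hoxd score of each library as a covariate, added after the data were seen, 20 genes passed (17 higher, 3 lower) and all 7 kept their call. The 13 others held Zc3h12a (log2 1.25, adjusted p = 0.0101), Epha2 (1.30, 0.0224), Bcl3 (1.76, 0.0444), Treh (-3.10, 0.0444) and Npas2 (-1.07, 0.0486). Without control 3 and both C. tropicalis libraries, 1 gene passed, Ciart (log2 2.27, adjusted p = 0.0375), with 1 control fewer and 3 fewer libraries to estimate the spread.

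The C. tropicalis libraries use the same controls, so the values are set side by side only. For the 7 genes they were 23.4 and 21.3 CPM for Arntl, 181 and 138 for Per1, 259 and 167 for Per2, 13.01 and 12.1 for Ciart, 186 and 113 for Hsph1, 31.2 and 17.4 for C2cd4a and 53.01 and 48.97 for Rbm14. In a direct test of C. albicans against C. tropicalis no gene of 16107 passed by edgeR (0%), with 3744 (23.2%) at an unadjusted p under 0.05. For Dbp the estimate of that difference was 2.11 log2 (adjusted p = 0.0646), with 48.7 and 29.4 CPM in C. tropicalis, a level within the controls. For Ciart it was 1.22 log2 (adjusted p = 0.0669) and for Hspa1a 1.89 (adjusted p = 0.0810).

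The calls rested on few libraries. Without control 1 or control 2, Arntl alone passed, without control 3 Arntl and Ciart, and without C. albicans 3 none (unadjusted p under 0.05 in 1363 genes), whereas without C. albicans 1 the count was 254 and held all 7. Rbm14 also missed in the fit of only the 6 libraries, without C. albicans 2 and without either C. tropicalis library. Against a minimum fold of 1.5, Arntl, C2cd4a, Ciart and Per2 passed.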

How the data were processed

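Colon RNA (3 μg, RNeasy Mini) was made into libraries by the unstranded NEBNext Ultra RNA protocol, per the labels' protocols. The authors deposited whole-number read counts per Ensembl gene for 8 libraries in 1 table. TopHat2 2.0.12, HTSeq, DESeq 1.18.0 and mm10 are listed in the submitters' processing notes, without roles. The annotation release was not given in the sources used here. Of 52636 identifiers, 52489 were found in GENCODE M21, and the other 147 held 0.00317% of the counts.

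The counts were fitted with edgeR 4.0.16 in R 4.3.3 (TMM, filterByExpr on the 3 groups, quasi-likelihood F-test). All 8 libraries entered 1 fit with 5 residual degrees of freedom, and p-values were adjusted by Benjamini-Hochberg over 16107 genes. SE is the log2 fold change divided by the square root of F, and the fit was tested on simulated data. Libraries of a group differed by more than sampling noise, so all were kept. Alternatives used DESeq2 1.42.0 and limma 3.58.1, other factors and filters, covariates, blocks and left-out libraries. Figures were drawn with matplotlib 3.10.9.

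Members and the 49 gene lists were chosen with earlier results of these data known. Named genes are those with an adjusted p under 0.1 (all 7 past 0.05, and otherwise up to 20 per direction), the 10 largest folds per direction, the 3 members of smallest p in each list of at least 5 tested genes, clock and heat shock members and 14 defence readouts. Genes beyond these rules, such as Coq10b, Fosb, Hoxd13, Slc9a3, Cdx2, Vil1, Slc26a3, Sfn, Bcl3 and the genes named for a promoter motif alone, were chosen after their values were seen. Promoters are from RefSeq, and some members have no entry. Some named genes are not reported here.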

Additional observations from a re-analysis of the deposited data

How the results depend on the processing

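The count of 7 genes past the threshold stayed at 7 with RLE size factors, upper-quartile factors, limma-voom and a stricter filter, the same 7 each time, and was 8 with a correction for GC content (the 7 and Coq10b) and 8 in the fit of only the 6 libraries. It was 460 with DESeq2 and 119 with no filter on low counts, both including the 7, 43 at a threshold of 0.1 and 4 against a minimum fold of 1.5. With the smooth muscle score in the model it was 17, and with the distal Hoxd score, added after the data were seen, 20. Without control 3 and both C. tropicalis libraries, also added, it was 1. Leaving out 1 library at a time gave 0 (C. albicans 3) to 254 (C. albicans 1), with 1 gene left without control 1 or control 2 and 2 without control 3; the cause was not tested. With the replicate number as a block, edgeR called 0 genes in the 8 libraries (2177 at an unadjusted p under 0.05), 0 with the GC correction too (1759) and 1, C2cd4a, in the 6 libraries. Same-numbered control and C. albicans libraries deviated from their group means with correlations of -0.392, -0.0795 and -0.128. Pairs of unlike number gave -0.295 to 0.362. Deviations within a group of 3 are tied to each other, so these values cannot decide whether the numbers pair the samples. Of the named genes, the log2 fold change of Hoxd13 turned positive with the smooth muscle covariate (1.01) and without control 3 and both C. tropicalis libraries (0.30), and ranged from -2.85 to 0.30 with 1 library left out. That of Hsp90aa1 turned negative with limma-voom (-0.40), the replicate block (-0.14 in 8 and -0.23 in 6 libraries, -0.025 with the GC correction), the smooth muscle covariate (-2.696) and the Hoxd covariate (-0.73), and ranged from -2.90 to 0.96 with 1 library left out. For Lcn2 that range was -0.025 to 0.65. Slc26a3 turned negative with the smooth muscle covariate (-0.052) and without control 3 and both C. tropicalis libraries (-0.12), with a range of -0.10 to 0.36, and Hspa9 turned positive with the GC correction (0.0203, and 0.0197 with the block too), with a range of -0.17 to 0.012. Counting depth limits the statements on genes at a few CPM, such as Treh, Kcnn2 and Reg3g.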

Other observations

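Blood vessel and matrix genes, not described so far, lay mostly above control, and none passed the test. Of 20 endothelial genes, 6 lay above all controls in every C. albicans library (30%, against 9.82% of all genes) and 0 below. Vwf, the clotting factor of endothelial cells, was at 19.9, 22.5 and 27.8 CPM in controls 1 to 3 and 29.04, 37.2 and 36.7 CPM in C. albicans 1 to 3 (log2 0.55 ± 0.16; adjusted p = 0.231 by edgeR). Fibroblast and matrix genes had 5 of 22 above all controls (22.7%), among them fibronectin, Fn1, at 443, 347 and 299 against 481, 784 and 673 CPM (adjusted p = 0.203). In both genes C. albicans 2, the library with the highest smooth muscle level, was the highest.

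Histone genes lay below control in 7 of 8 cases, against 51.8% of all genes, and in 3 (37.5%, against 9.57% of all genes) all colonized libraries were below all controls. The linker histone gene Hist1h1c was at 251, 300.0 and 308 CPM in the controls and 177, 191 and 160.0 CPM with C. albicans (log2 -0.70 ± 0.13; adjusted p = 0.114). Of 21 glucocorticoid-responsive genes and metallothioneins, 5 (23.8%) lay above all controls, against 9.82% of all genes, and 2 (9.52%) below, near the 9.57% of all genes. Errfi1, a feedback inhibitor of the EGF receptor, was at 78.1, 61.9 and 43.1 against 110.1, 136 and 103 CPM, whereas Sgk1, a kinase of sodium uptake, was at 439.7, 332 and 364 against 286, 215 and 233 CPM (adjusted p = 0.177 and 0.203).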
